A study of Arabidopsis thaliana with 96 samples.

Results

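The 41 genes described here are auxin response genes of *Arabidopsis thaliana*. They encode the Aux/IAA repressors (29 genes) and auxin response factors, or ARFs (12 genes, with 11 other ARF genes left outside). They were chosen by family and by locus in the reference annotation, out of 27444 nuclear protein-coding genes. A peak was counted for a gene when its summit lay between 1000 bp upstream of the annotated gene start and 300 bp past the gene end. The study measured accessible chromatin in leaves by ATAC-seq combined with sorting of nuclei in natural accessions. Plants were kept at 22 °C with 16 h of light and 8 h of darkness. The 6 accessions whose peak positions can be read on the reference genome were used here. These were Col-0, the reference accession, and Og, Hi, Ad-0, Mt and En-2, each represented by 4 lists of peaks. No genotype other than the accession, and no treatment, is given in their labels. A further 4 lists came from a Col-0 group labelled untreated, whose list headers name naked DNA, so it served as a background of the transposase and not as leaf chromatin.

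Auxin is perceived by F-box receptors of the TIR1/AFB group, which bind Aux/IAA proteins in the presence of the hormone and direct their degradation. Aux/IAA proteins otherwise hold ARF transcription factors inactive, together with co-repressors of the TOPLESS group. ARFs bind short elements in the promoters of auxin-responsive genes, and many Aux/IAA genes are themselves induced rapidly by auxin, which gives a negative feedback. In leaves this pathway is known for its part in expansion, vein formation, polarity and senescence.

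At the 2360 genes with a peak in all 24 lists, the 4 lists of an accession differed by no more than the counting noise. Over these genes, the dispersion index of the pileups, which is 1 for draws from one library, ranged from 0.813 to 0.935. Genes with a peak in only some of the lists were not part of it. The 4 lists were therefore counted as 1 sample, so that differences between accessions have no replicate check and were not tested. Depth ranged from 1463227 to 1502898 tags in En-2 and from 4582467 to 4754108 tags in Col-0. The lists held 5564 to 5829 nuclear peaks in Hi, 5721 to 6472 in Ad-0 and 18995 to 21327 in Mt, the longest of the 6. All 7 leaf marker genes had a peak in all lists of 4 accessions and 6 of 7 in those of Hi and En-2. Of 7 seed marker genes, 2 had one in all 4 lists of Col-0, Og and En-2 (40.4%, 36.6% and 28.6% of all genes). In Mt 3 did (49.6%), and in Hi and Ad-0 0 did (14.0% and 14.2%). The seed markers were thus not closed throughout. CRC had a peak in 19 and OLEO1 in 20 of the 24 lists, and OLEO1 also in 1 untreated list. CRA1, SESA2 and SESA3 had none. In bulk leaf nuclei, fewer cells with an open site and a less open site in each cell cannot be told apart.

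Peaks were listed in all 4 files for a larger share of Aux/IAA genes than of all genes in each of the 6 accessions. In Col-0, a peak was listed in all 4 files for 14 of 29 Aux/IAA genes and 6 of 12 ARF genes, where 40.4% of all genes had one. In Og the counts were 13 Aux/IAA and 5 ARF genes against 36.6% of all genes, and in En-2 they were 14 and 6 against 28.6%. In Hi they were 10 and 3 against 14.0%, in Ad-0 11 and 3 against 14.2%, and in Mt 17 and 7 against 49.6%. The mean share over the 6 accessions was 45.4% ± 8.56 (SD, n = 6) for Aux/IAA genes and 41.7% ± 13.9 for ARF genes, compared with 30.6% ± 14.4 for all genes. A peak in at least 1 file was found for 20 Aux/IAA and 8 ARF genes in Col-0 (55.1% of all genes), 20 and 8 in Og (57.0%), 14 and 4 in Hi (27.3%), 15 and 6 in Ad-0 (28.7%), 22 and 9 in Mt (71.3%) and 20 and 7 in En-2 (47.6%). For peaks in all 4 files, the 29 Aux/IAA genes and the 12 ARF genes lay above all genes in each accession, although 1 ARF gene alone amounts to 8.33%. The 11 ARF genes outside the 12 are not in these shares. Of them, 3 had a peak in all 4 files of Col-0, Hi, Ad-0 and En-2, and 2 in those of Og and Mt. No list held a peak for 8 of the 11, so the ARF shares do not stand for all ARF genes. ARF genes are also long, with a median of 4869 bp compared with 2078 bp for all genes and 1740 bp for Aux/IAA genes, and the part of gene length in these shares was not tested.

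**Figure D1:**
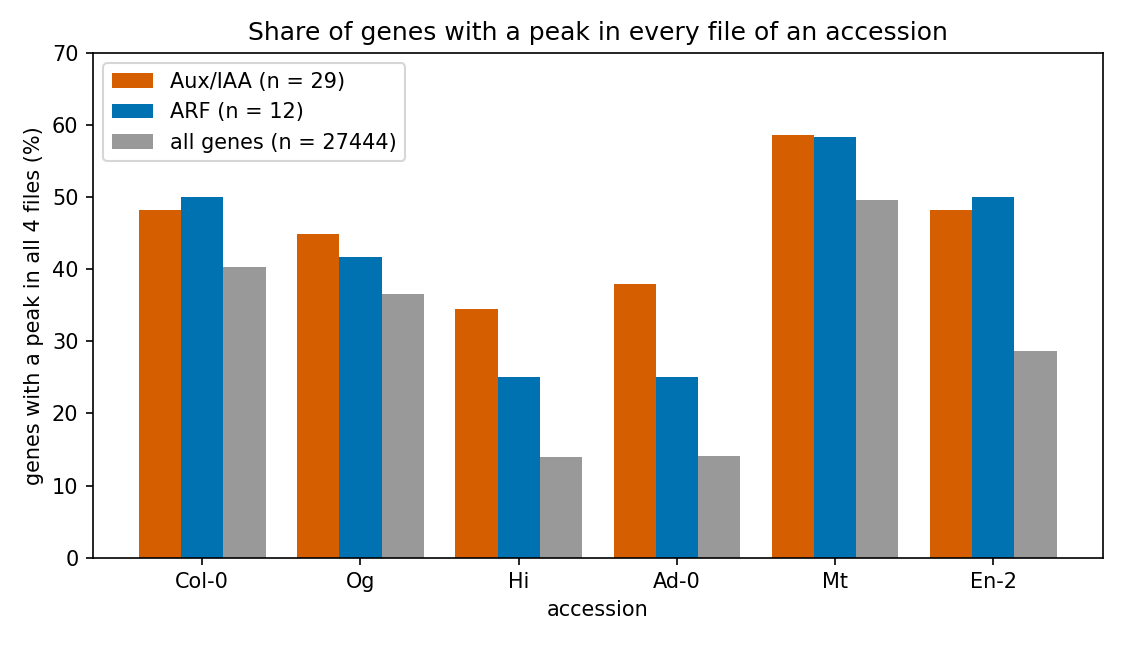
Percentage of genes (y axis, from 0) with a listed peak in all 4 files of each accession (x axis), for the 29 Aux/IAA genes, the 12 ARF genes and all 27444 genes. The Aux/IAA bars range from 34.5% in Hi to 58.6% in Mt, and the bars of all genes from 14.0% in Hi to 49.6% in Mt.

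The length of the lists moved these shares. With every list shortened to its 5564 peaks of highest fold enrichment, a step chosen after the data were seen, between 24.1% and 34.5% of Aux/IAA genes kept a peak in all 4 files of an accession, where the background ranged from 12.9% in Ad-0 to 17.8% in Col-0. Among ARF genes the share was then 25.0% in Col-0, Og, Hi and Ad-0, 16.7% in Mt, where all genes stood at 16.4%, and 8.33% in En-2, below the 15.2% of all genes. No member had a peak in any of the 4 untreated lists, in which 1.39% of all genes had one in at least 1 list.

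By these counts the members fell into 3 groups. A peak was present in all 24 lists for 8 Aux/IAA genes (27.6% of the family) and 2 ARF genes (16.7%), compared with 8.60% of all genes. These were IAA2, IAA4, IAA7, IAA8, IAA9, IAA11, IAA16, IAA19, ARF2 and ARF8. No list held a peak for 6 Aux/IAA genes (20.7%) and 3 ARF genes (25.0%), compared with 24.5% of all genes. The remaining 15 Aux/IAA and 7 ARF genes had a peak in 1 to 23 lists.

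**Figure D2:**
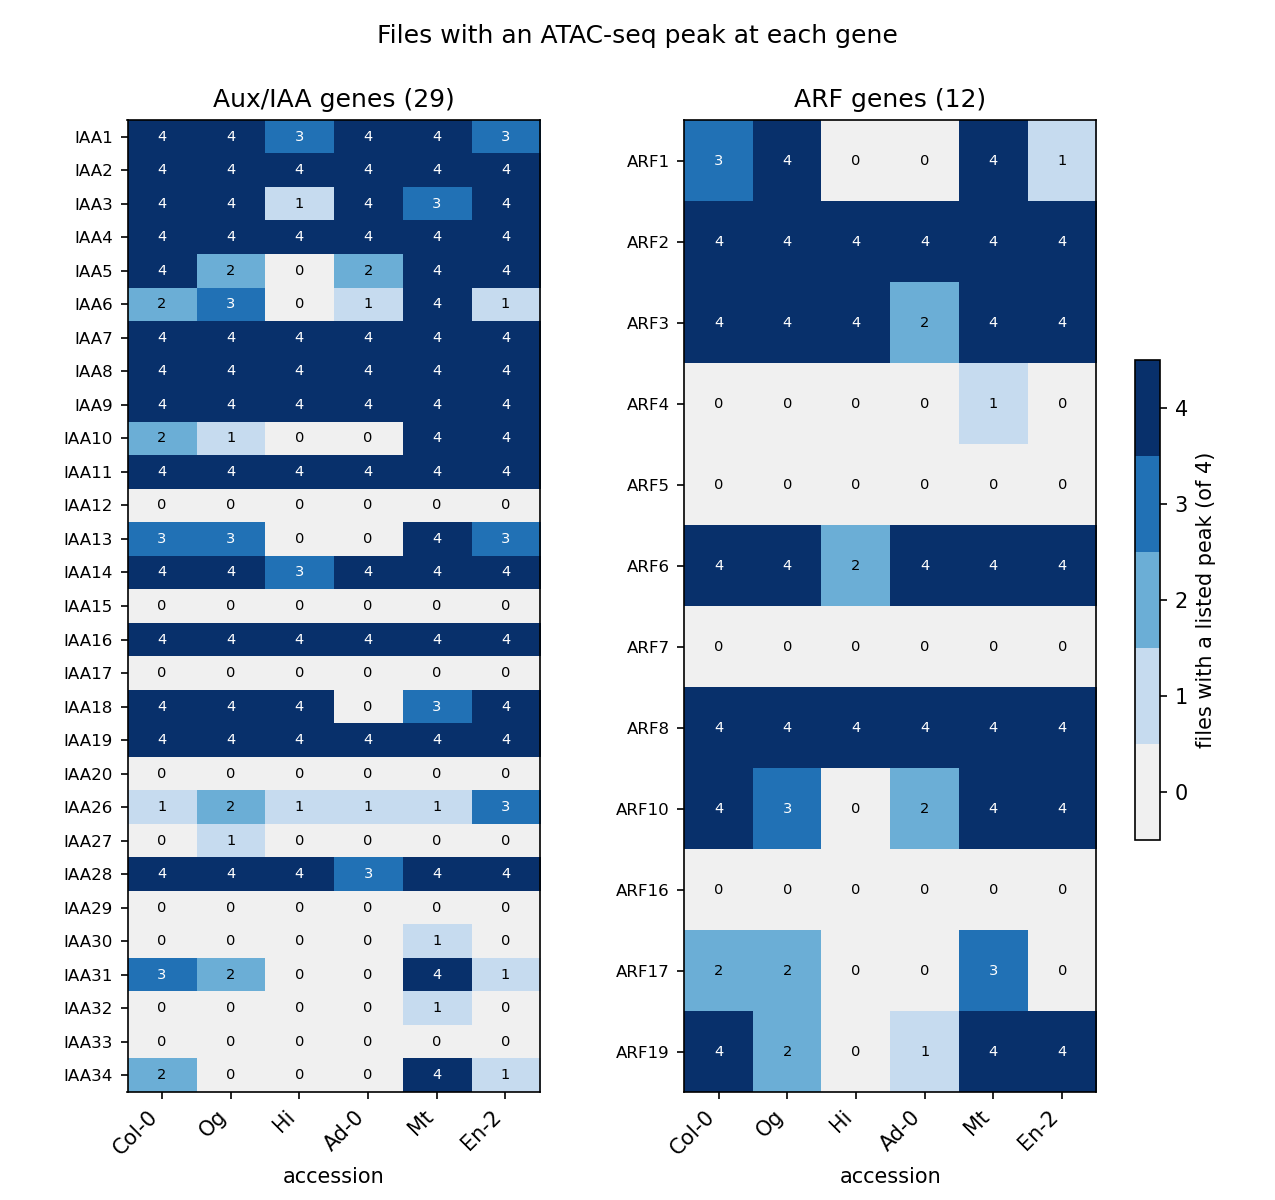
Number of files with a listed peak (0 to 4, colour and digit) for each of the 29 Aux/IAA genes and 12 ARF genes (rows) in the 6 accessions (columns). The 10 rows filled with 4 are the genes with a peak in all 24 files, and the 9 rows filled with 0 are those with none.

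Sequence at the summits is shown for 6 of the 8 members with a peak in at least 12 of the 20 lists of the 5 accessions with reference names and a summit 30 bp or more upstream of the gene and outside every annotated gene, to set the auxin response element beside the peaks. The stretches are taken around the median summit of the tallest peak in these lists, that of IAA4 ending where the gene begins, and run 5′ to 3′ on the strand of the gene, from the TAIR10.1 genome of RefSeq. Capitals mark TGTCTC, the classical element bound by ARFs, or its complement GAGACA, and CACGTG, the G-box bound by several families of transcription factors. The other ARF element searched, TGTCGG, is absent from them. The stretches are IAA19 at chr3:5263795-5263895 on the plus strand, IAA1 at chr4:8360858-8360958 on the plus strand, IAA11 at chr4:14141434-14141534 on the plus strand, ARF6 at chr1:10691789-10691889 on the minus strand, ARF8 at chr5:14629335-14629435 on the plus strand and IAA4 at chr5:17550088-17550178 on the plus strand.
IAA19: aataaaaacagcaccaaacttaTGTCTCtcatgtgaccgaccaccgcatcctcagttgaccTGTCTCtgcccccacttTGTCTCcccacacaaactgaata
IAA1: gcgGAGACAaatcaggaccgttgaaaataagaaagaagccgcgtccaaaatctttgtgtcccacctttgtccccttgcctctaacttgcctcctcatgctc
IAA11: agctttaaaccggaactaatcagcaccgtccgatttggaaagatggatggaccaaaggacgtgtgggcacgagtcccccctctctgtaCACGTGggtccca
ARF6: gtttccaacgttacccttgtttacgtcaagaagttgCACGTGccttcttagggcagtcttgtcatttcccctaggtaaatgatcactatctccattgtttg
ARF8: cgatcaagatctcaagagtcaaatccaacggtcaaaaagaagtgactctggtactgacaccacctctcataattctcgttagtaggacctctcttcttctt
IAA4: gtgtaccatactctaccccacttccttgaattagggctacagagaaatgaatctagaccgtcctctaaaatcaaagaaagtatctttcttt

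The IAA19 stretch, centred 156 bp upstream of the gene start, held 3 copies of TGTCTC, all on the strand of the gene. IAA19 was the single gene with 3 or more copies, on either strand, among 2366 genes with a peak in all 20 lists of these 5 accessions (0.0423%). The cutoff of 3 is the count of IAA19 itself, so this share is no independent measure of how rare such a stretch is. The IAA1 stretch, centred 88 bp upstream, carried the element once in the other orientation. Those of IAA11 and ARF6 each carried a G-box, and those of ARF8 and IAA4 none of the letters searched. A G-box stood in such a window around the tallest summit at 15.3% of the 2366 genes. The stretches of the other 2 members, IAA5 and IAA28, also held none and are not printed.

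Around the tallest summit, windows of 101 bp held TGTCTC or TGTCGG, on either strand, at 3 of the 8 Aux/IAA genes with a peak in all 20 lists, namely IAA7, IAA16 and IAA19, and at neither of the 2 ARF genes. The share was 9.43% of the 2366 genes. In promoters, taken as 250 bp before to 50 bp after the gene start, TGTCTC occurred at 12 of 29 Aux/IAA genes (41.4%), at 1 of 12 ARF genes (8.33%) and at 14.2% of all genes. TGTCGG occurred at 6 Aux/IAA genes (20.7%), 2 ARF genes (16.7%) and 5.12% of all genes, and CACGTG at 5 Aux/IAA genes (17.2%), no ARF gene and 7.68% of all genes. The element in a promoter did not go with a peak throughout. Of the 12 Aux/IAA genes with TGTCTC, IAA8 and IAA19 had a peak in all 24 lists, and IAA15 and IAA20 in none. These matches are descriptions of letters in the reference genome, which the accessions may not share, and not of binding.

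The level of a gene is given as the pileup at its tallest peak, as the mean of the 4 lists of an accession. IAA11 (AT4G28640, chr4:14142063-14143969) had the tallest peaks of the Aux/IAA genes. Its peak, the stretch with the G-box printed above, held a pileup per 1000000 tags (PPM) of 28.5 in Col-0, 26.1 in Og, 17.3 in Hi, 28.8 in Ad-0, 35.9 in Mt and 38.9 in En-2 (mean 29.3 ± 7.61, SD, n = 6). Counting intervals of 95%, which cover counting error alone, ran from 14.7 to 20.3 in Hi and from 34.0 to 44.2 in En-2. The value was lowest in Hi and highest in En-2, each a single sample. On a relative scale, the level was divided by the median, in the same accession, of the 2360 genes with a peak in all lists, which ran from 12.2 PPM in Ad-0 to 23.4 in Mt. Hi was lowest on this scale too, and Ad-0, at 2.37 times that median, was highest. The summit stood 507 to 934 bp upstream of the start and was nearer to ABCB23 (AT4G28630), the neighbouring transporter gene, than to IAA11 in 24 of 24 lists.

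IAA16 (AT3G04730, chr3:1288155-1290891) carried the most peaks, 68 in the 24 lists and up to 4 in a single list. Its tallest peak lay 184 to 223 bp inside the gene, in the 5′ UTR, in 19 of 20 reference-named lists. The level was lowest in Hi at 11.1 PPM and highest in En-2 at 32.1 PPM (mean 20.4 ± 7.04), but on the relative scale it was lowest in Mt and highest in Ad-0. Shorter peaks stood upstream and near the 3′ end.

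IAA4 (AT5G43700, chr5:17550179-17551715), an early auxin-induced member, varied the least among the members with a peak in all 24 lists. It held 20.0 PPM in Col-0, 19.9 in Og, 15.3 in Hi, 22.2 in Ad-0, 18.6 in Mt and 22.5 in En-2. The highest accession value was 1.48 times the lowest, whereas 99.7% of the 2360 genes with a peak in all lists varied at least as much. This narrow range depended on the scale. On the relative scale the ratio was 2.29, with 22.2% of the genes at least as wide and Ad-0 highest.

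IAA9 (AT5G65670, chr5:26253408-26256544), whose counterpart in tomato is known for its part in fruit set and leaf shape, varied the most among these 10 members in PPM, and on the relative scale less than ARF8. It held 18.4 PPM in Col-0, 12.8 in Og, 8.16 in Hi, 11.4 in Ad-0, 18.4 in Mt and 35.5 in En-2. The lists ran from 33.5 to 38.6 in En-2 and from 6.33 to 11.8 in Hi, a spread within 1 sample each. The ratio of the highest to the lowest was 4.35, reached by 3.98% of the 2360 genes, and was 2.36 on the relative scale, reached by 19.1%. Hi remained lowest and En-2 highest on both scales.

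IAA8 (AT2G22670, chr2:9636346-9638761), the close relative of IAA9, showed another order. Its level was 7.17 PPM in Ad-0, 10.8 in Hi, 11.9 in Col-0, 13.7 in Og, 20.2 in En-2 and 27.6 in Mt. Mt exceeded Ad-0 by 3.84 times, and by 2.00 times on the relative scale. Its summit lay within 65 bp of the gene start in all 24 lists.

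IAA19 (AT3G15540, chr3:5264001-5265695), also known as MASSUGU2 and linked to bending of the stem toward light, had 1 peak in each list, the one with the 3 ARF elements. It held 11.4 PPM in Col-0, 13.0 in Og, 8.96 in Hi, 10.1 in Ad-0, 15.5 in Mt and 22.5 in En-2. En-2 was the highest of the 6 single samples and Hi the lowest. On the relative scale the accessions ranged by 1.57 times, with En-2 still highest and Col-0 lowest.

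IAA7 (AT3G23050, chr3:8194606-8197161), the gene of the auxin-resistant mutant *axr2*, differed in position from the other Aux/IAA genes with a peak in all 24 lists. Its tallest summit lay 2294 to 2390 bp into a gene of 2556 bp in all 24 lists, within the 3′ UTR in 20 of 20 reference-named lists. The level ran from 11.8 PPM in Hi to 23.4 in En-2, and on the relative scale Col-0 was lowest and Ad-0 highest. Smaller peaks stood at the gene start.

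IAA2 (AT3G23030, chr3:8180646-8182095), another early auxin-induced gene, had its tallest summit 78 to 223 bp inside the gene, in coding sequence in 15 of 20 reference-named lists and in the 5′ UTR in 5. The level was 14.3 PPM in Hi and 25.8 in Mt, and 15.4 to 18.7 in the other 4 accessions, whereas on the relative scale En-2 was lowest and Ad-0 highest.

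**Figure D3:**
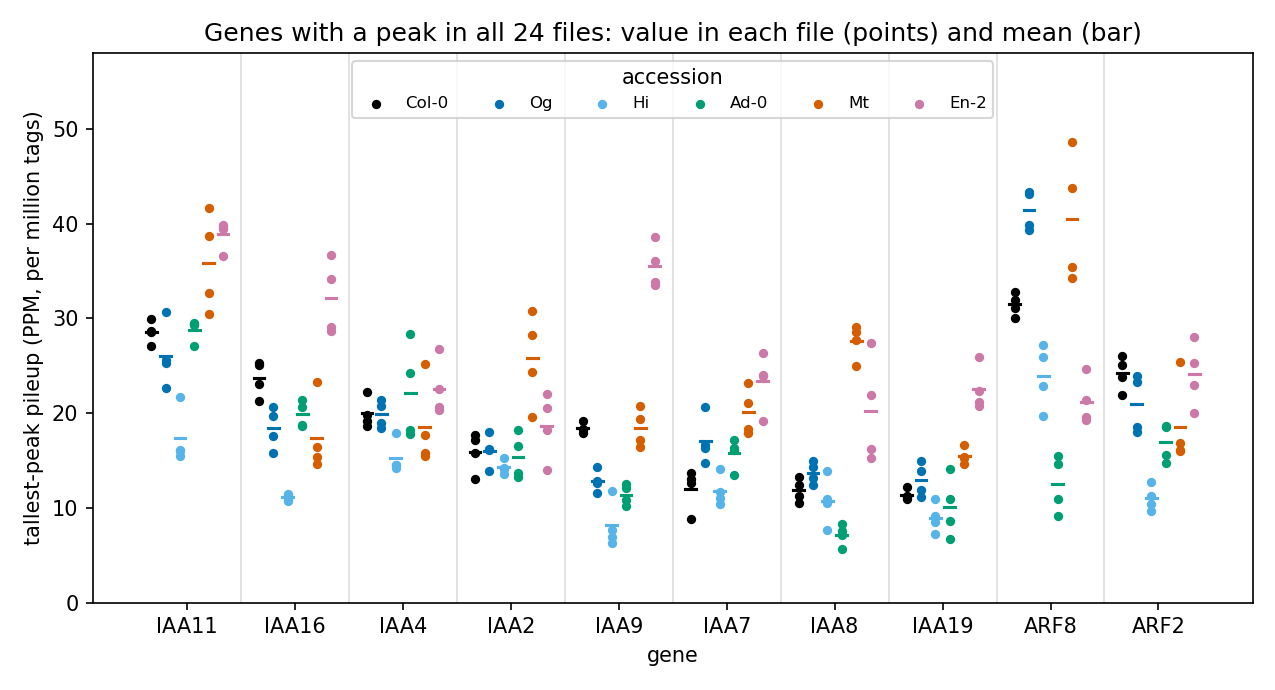
Tallest-peak pileup in PPM (y axis, from 0) of the 10 members with a peak in all 24 files, with a point for each file and a bar for the mean of the 4 files, coloured by accession. IAA9 is highest in En-2 at 35.5, and ARF8 is highest in Og at 41.4 and lowest in Ad-0 at 12.6.

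The highest mean level among ARF genes belonged to ARF8 (AT5G37020, chr5:14629453-14634454), which with ARF6 promotes flower maturation, although ARF2 was higher in Ad-0 and En-2. ARF8 held 31.5 PPM in Col-0, 41.4 in Og, 23.9 in Hi, 12.6 in Ad-0, 40.5 in Mt and 21.2 in En-2. Counting intervals ran from 10.2 to 15.3 in Ad-0 and from 37.5 to 45.7 in Og. Og exceeded Ad-0 by 3.3 times, a ratio reached by 19.1% of the 2360 genes. On the relative scale Og remained highest, at 2.45 times En-2, which then took the lowest place. The summit, in the stretch printed above without TGTCTC or TGTCGG, lay 11 to 114 bp upstream in all 24 lists.

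ARF2 (AT5G62000, chr5:24910191-24915395), a repressor that limits organ size and promotes leaf senescence, had a peak inside the gene and another upstream in all lists but 1 of Ad-0, which held the upstream peak alone. The tallest lay 212 to 219 bp inside the gene in Col-0 and 132 to 138 bp inside in Og, but 452 to 478 bp upstream in Ad-0. Col-0 positions are taken to hold within 150 bp, so the gap between Col-0 and Og cannot be read as a difference in position. In Hi, Mt and En-2 the lists were divided between the inner and the upstream peak. The level ran from 11.0 PPM in Hi to 24.2 in Col-0 (mean 19.3 ± 4.99), and on the relative scale Mt was lowest and Ad-0 highest.

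ARF3 (AT2G33860, chr2:14325206-14328978), or ETTIN, acts in gynoecium and leaf polarity and had a peak in 22 lists, missing 2 of Ad-0. It too had a peak at each end. The tallest summit stood 3716 to 3797 bp from the start, at the 3′ end of a gene of 3773 bp, in all lists of Col-0, Og and Mt, and 126 to 133 bp from the start in the 2 lists of Ad-0. In Hi and En-2 the lists were divided between the ends. Levels were 7.48 PPM in Hi, 10.8 in En-2, 11.3 in Col-0, 12.8 in Og and 17.5 in Mt, and so do not all describe the same peak. Of its 38 peaks, 5 were nearer to the neighbouring gene AT2G33855.

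ARF6 (AT1G30330, chr1:10685822-10690988) had a peak in 22 lists, missing 2 of Hi. Its tallest summit lay upstream in 19 lists, up to 956 bp from the start, and its G-box stretch is printed above. The level ran from 6.03 PPM in Ad-0 and 6.26 in Col-0 to 16.5 in Mt. These levels do not all describe the upstream peak. The tallest summit ranged from 915 bp upstream to 5180 bp from the start in Col-0. In Mt it ranged from 917 bp upstream to 5220 bp from the start. In 3 of the 4 Col-0 lists a further summit lay outside the window by less than 150 bp, the tolerance of the Col-0 coordinates.

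Of the other activating ARFs, ARF5 (MONOPTEROS), which acts in embryo patterning and vein formation, and ARF7, which acts in tropic growth and lateral root formation, had no peak in any list. The nearest summit stood 1959 bp or more upstream of ARF5 and 1119 bp or more upstream of ARF7. ARF19, the partner of ARF7 in lateral root formation, had a peak in 15 lists, in all 4 of Col-0, Mt and En-2, in 2 of Og, in 1 of Ad-0 and in none of Hi. Its levels were 4.66 PPM in Col-0, 9.09 in En-2 and 10.3 in Mt, and 9 of the 11 summits in reference-named lists lay in the 3′ UTR. The 5 activating ARFs, grouped by their known roles after values were seen, thus ranged from a peak in all lists to none, and 1 to 3 of them had a peak in all 4 files of a given accession, where 14.0% to 49.6% of all genes had one. Among the other 7 ARF genes the count was 1 to 4. Neither count was tested against all genes.

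**Figure D4:**
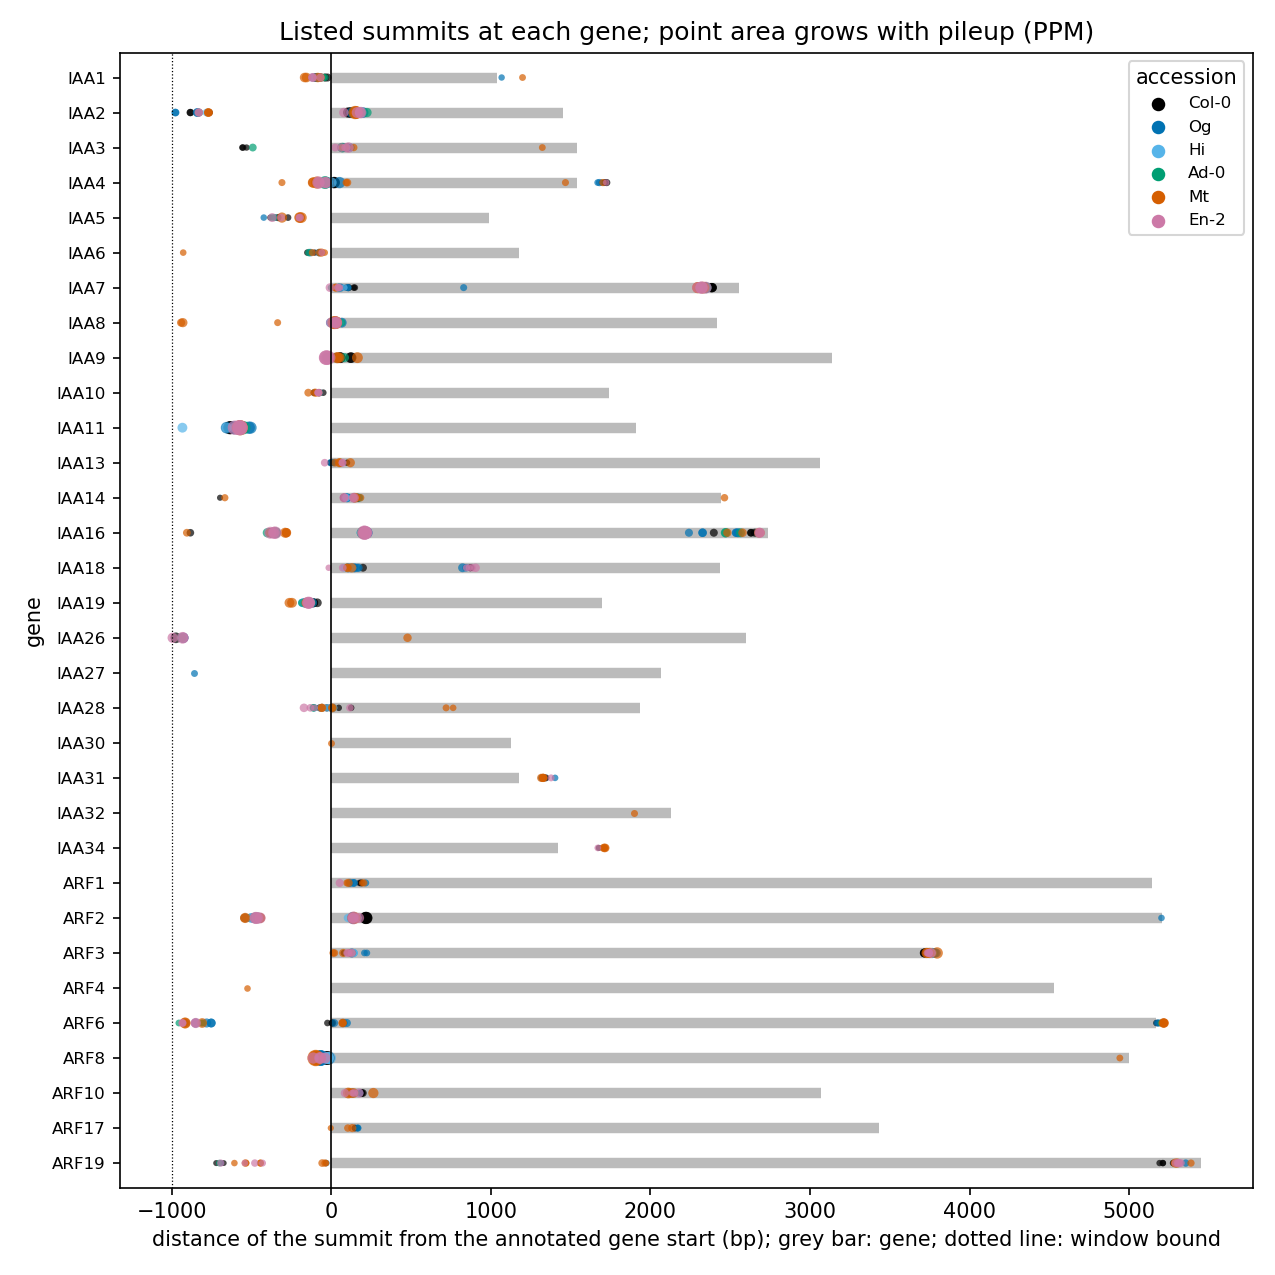
Distance of each listed summit from the annotated gene start in bp (x axis) for the 32 members with at least 1 peak (rows), with the gene as a grey bar, the upstream window bound as a dotted line and point area growing with PPM. Most summits cluster at the start. The tallest summits of IAA7 lie near the 3′ end in all lists, and those of ARF3 and ARF19 do in most of the lists with a peak. IAA31 and IAA34 have theirs past the gene end. Those of IAA11, and most of those of ARF6 and IAA26, lie farther upstream.

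Among the remaining ARF genes, ARF10, one of the ARFs targeted by a shared microRNA, had a peak in 17 lists, with 8.37 PPM in Col-0, 9.40 in En-2 and 16.4 in Mt, and no list of Hi held it. ARF17, of the same group, had a peak in 7 lists, and ARF16, also of that group, in none. ARF1, a repressor, had one in all 4 lists of Og (7.96 PPM) and Mt (7.04), in 3 of Col-0 and 1 of En-2, and in no list of Hi or Ad-0. ARF4, which acts with ARF3 in leaf polarity, had a single peak, in 1 list of Mt at 5.05 PPM.

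Members known from gain-of-function mutants differed in the same way. IAA3 (SHY2), linked to root meristem size, had a peak in 20 lists, in 1 of 4 in Hi and 3 of 4 in Mt, with 8.93 PPM in Col-0, 9.64 in Og, 11.4 in Ad-0 and 12.7 in En-2. IAA14 (SOLITARY-ROOT), linked to lateral root formation, had one in 23 lists at 7.68 PPM in Ad-0 to 12.3 in En-2. IAA28, also linked to lateral roots, had one in 23 lists at 5.94 in Col-0 to 9.69 in Mt. By contrast, IAA12 (BODENLOS), the partner of ARF5 in the embryo, and IAA17, the gene of the *axr3* mutant, had no peak in any list. The nearest summits stood 3698 bp or more upstream and 466 bp or more past the end of IAA12, and at least 1288 bp upstream and 1106 bp past the end of IAA17. IAA15, IAA20, IAA29 and IAA33 also had none.

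A peak in all 4 lists of one accession and in none of another was found for 7 Aux/IAA genes (IAA5, IAA6, IAA10, IAA13, IAA18, IAA31 and IAA34) and 3 ARF genes (ARF1, ARF10 and ARF19), where 35.8% of all genes met this count. For each of the 10 the missing accession was Hi or Ad-0, those with the shortest lists, or both, and for IAA34 it was Og as well. The part of list length, or of sequence that differs from the reference, in these absences was not tested. IAA5, an early auxin-induced gene, illustrates the range. Its peak held 4.77 PPM in Col-0, 8.91 in En-2 and 17.6 in Mt, was listed in 2 files each of Og and Ad-0, and was in no list of Hi, whose lowest listed values were 4.04 to 4.52 PPM. In lists of equal length, IAA5 kept its peak in all 4 files of Mt, in 2 of Ad-0 and in 1 of En-2.

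IAA18 showed the other pattern, with a peak in all 4 lists of Hi (9.51 PPM) and none in Ad-0. It held 11.3 PPM in Og, 7.74 in En-2 and 6.79 in Col-0, and in lists of equal length it kept a peak in 4 files of Hi and 1 of En-2. The tallest summit of IAA18 lay 79 to 133 bp inside the gene in Hi. It lay up to 904 bp inside in En-2, 871 in Col-0 and 822 in Og, so these levels do not all describe the same peak. IAA13, the close relative of IAA12, had a peak in all 4 lists of Mt (11.0 PPM), in 3 each of Col-0, Og and En-2 and in none of Hi and Ad-0. IAA6, known as SHY1, reached all 4 lists in Mt (7.33 PPM). IAA10 did so in Mt (8.44 PPM) and En-2 (6.57), and 11 of its 11 peaks were nearer to the neighbouring gene AT1G04090.

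The 6 Aux/IAA genes whose proteins lack the usual degron that binds the receptor (IAA20, IAA30, IAA31, IAA32, IAA33 and IAA34) were grouped after values were seen. None of the 6 had a peak in all 24 lists, compared with 8 of the other 23 Aux/IAA genes and 8.60% of all genes. These counts were not tested. In Mt 2 of the 6 had a peak in all 4 lists, IAA31 at 9.57 PPM and IAA34 at 8.71, and in the other 5 accessions 0 of 6 did, where 10 to 14 of the other 23 and 14.0% to 40.4% of all genes did. The peaks of both lay past the gene end, and 10 of 10 for IAA31 were nearer to its neighbour BSH. IAA30 and IAA32 each had 1 peak, in Mt.

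The window bound mattered for IAA26, a phytochrome-associated member. A summit 927 to 1077 bp upstream, with 9.36 to 23.2 PPM, was present in 24 of 24 lists, but in 8 it lay inside the 1000 bp bound. IAA27, also phytochrome-associated, had a single peak, in Og at 5.87 PPM. IAA1, whose stretch is printed above, had a peak in 22 lists, with 5.63 PPM in Ad-0 and 13.8 in Mt. Of the 705 peaks of all members, 112 (15.9%) also lay in the window of another gene and 55 (7.80%) were nearer to another gene.

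The order of the families in height depended on the lists. The median level of genes with a peak in all 4 files was 13.6 ± 3.28 PPM for Aux/IAA genes, 12.3 ± 2.33 for ARF genes and 11.1 ± 1.59 for all genes (SD, n = 6 accessions). In lists of equal length the ARF median, at 19.8, lay above the Aux/IAA median of 16.0. The ARF median then rested on 1 to 3 genes in each accession and ran from 11.0 to 29.0 PPM (SD 6.88). The summit of the tallest peak lay within 250 bp of the gene start for 75.8% ± 2.90 of Aux/IAA peaks, compared with 58.1% ± 10.9 for ARF genes and 54.9% ± 2.45 for all genes. The Aux/IAA range over accessions, 73.5% to 81.3%, did not overlap that of all genes, whose highest was 57.4%. The values of a family count largely the same genes in each accession. Their SD and range therefore do not measure how its genes vary, and the difference was not tested. It lay upstream of the start for 44.9% ± 6.52 of Aux/IAA, 43.3% ± 19.8 of ARF and 55.4% ± 2.69 of all genes. In the reference-named lists, 33.2% of Aux/IAA summits and 37.4% of ARF summits lay in the 5′ UTR, and 6.8% and 13.0% in the 3′ UTR. These shares pool lists that count the same genes, and none over all genes was computed. Of the 21 Aux/IAA summits in the 3′ UTR, 20 were of IAA7, and the 15 of ARF genes were of ARF19 (9) and ARF3 (6).

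Other genes of the pathway, listed by role, spanned the same extremes. The counts of these short lists stand beside 8.60% of all genes with a peak in all 24 lists, 24.5% with none and 14.0% to 49.6% with one in all 4 files of an accession. Of the 6 auxin receptor genes 4 had a peak in all 24 lists, with TIR1 at 39.4 ± 16.3 PPM and AFB2 at 43.4 ± 8.04. Of the 5 co-repressor genes 4 did, led by TPL (TOPLESS) at 42.1 ± 17.2. These levels exceed the mean of each of the 41 members. Of the 6 auxin synthesis genes 4 (TAA1, YUC1, YUC2 and YUC4) had no peak in any list, and 2 had one in all 4 files of Mt and of no other accession. Among 7 GH3 genes, which conjugate auxin to amino acids, 1 to 5 had a peak in all files of an accession, with GH3.3 in all 24 lists at 21.5 ± 4.16. Among 10 transport genes the count was 2 to 8, and PIN4 and PIN7 were in all 24 lists. Among 4 ubiquitin ligase genes the count was 0 to 2, and RBX1 had no peak in any list. Of the 11 ARF genes outside the 12, 8 in a group of closely similar copies on chromosome 1 had no peak, and reads that fit several copies make those zeros uncertain. ARF9, at 15.6 ± 4.02, was in all 24 lists.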

How the data were processed

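ATAC-seq peak lists of 6 accessions (24 files) and of untreated Col-0 (4 files) were used, and the other 68 of 96 files, whose sequences carry other names, were not. Groups were taken from the labels. Per the submitters' processing notes, the authors aligned reads with Bowtie 1.2.2 and called peaks in each file with MACS2 2.1.2, and per the file headers this was done without a control library, with duplicates kept and a q-value cutoff of 0.05. The deposited pileup is a signal, the number of extended tags at the summit. The deposited fold enrichment is the ratio to the local background, and the deposited −log10 q-value gives the significance. The paper's supplementary methods give a less strict q-value than these headers, which were followed. Positions were read on TAIR10, by the reference names in the lists, although the paper states that each accession was aligned to its own genome. Those of Col-0, which lie on its own sequences, were taken to be within 150 bp of TAIR10.

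The level of a gene is its tallest pileup per 1000000 tags of the file (PPM), averaged over the 4 files of an accession. Depth limits its precision, and exact Poisson intervals of 95% on the summed pileup cover counting error only, since duplicates were kept. The lowest listed value ran from 2.94 to 4.52 PPM, so that an absent peak means one not listed at that depth. In the 5 accessions with reference names, sequence that differs from the reference may also change a level or a listing. The paper warns of such a bias, and it was not tested here. The members, gene lists and groupings were chosen with earlier results of these data known, and no test was run between accessions or on a list of genes. Files within an accession were screened for outliers by Dixon's criterion. All members were accounted for, and those given with values were the 6 highest of each family, those with no peak, those with a peak in all 4 files of one accession and 0 of another, and those with known mutants (IAA3, IAA7, IAA12, IAA14, IAA17, IAA19, IAA28, ARF2, ARF3, ARF5, ARF7 and ARF19). Motifs were searched on both strands. The assignment of peaks to 27444 genes was tested on simulated data, with 200 of 200 peaks returned as placed. Alternatives were q-value cutoffs of 0.01 and 0.001, windows of 500 and 2000 bp, a common floor of pileup, peaks wider than a fragment, peaks nearest to the gene, Col-0 or a replicate left out, 1 file in place of 4, 2 scalings and lists of equal length. Python 3.11.15, pandas 2.3.3, NumPy 2.4.6, SciPy 1.17.1 and matplotlib 3.10.9 were used.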

Additional observations from a re-analysis of the deposited data

Results flagged for a closer look

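Of 6 measures in each of 6 accessions (36 groups of 4 files), 5 held a file apart from the other 3. Chance gives about 1.8 for continuous values, a number that does not apply to 4 of the 5, which are counts of genes tied in the other 3 files. The Col-0 file of replicate 2 had 8 ARF genes with a peak and the others 7. The Hi file of replicate 2 had 53.9% of its tallest Aux/IAA peaks upstream of the gene start and the others 45.5% to 46.2%. In Ad-0, replicate 1 had 15 Aux/IAA genes with a peak and the others 12. In Mt, replicate 2 had 20 and the others 19. In En-2, replicate 4 had 7 ARF genes with a peak and the others 6.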

How the results depend on the processing

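Of 84 values under alternatives, for 6 results, 74 moved by less than the SD over accessions. With a peak in at least 1 file, the share of genes became 63.8% for Aux/IAA and 58.3% for ARF genes. With lists of equal length, chosen after seeing the data, it became 31.0% and 20.8%. The ARF median level became 19.8 PPM, above the Aux/IAA median of 16.0, but rested on 1 to 3 ARF genes in each accession. As fold enrichment, the median level was 7.36 for Aux/IAA and 6.74 for ARF genes, and over the median of the genes with a peak in all files it was 0.774 and 0.719. A window of 2000 bp put 57.4% of tallest Aux/IAA summits upstream. With each replicate left out in turn, the share was 45.4% to 48.9% for Aux/IAA and 41.7% to 44.4% for ARF genes, the median level 13.2 to 14.0 and 11.8 to 12.5 PPM, and the share upstream 43.5% to 45.7% and 41.8% to 44.7%. No paired analysis was possible because the results come from no test. The causes of these moves were not tested. An unlisted peak may lie below the floor of a list, and each accession is 1 sample.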
